A study of Rattus norvegicus with 42 samples.

Results

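The transcripts described here are those of 10 neuropeptide precursor genes that mark interneuron types of the rat forebrain: Sst, Cort, Pdyn, Penk, Tac3, Tac1, Vip, Crh, Npy and Cck. They were picked by symbol as a family, with earlier results of these data known, so that counts among them are not those of an independently drawn list. All 10 symbols were found in the table of estimated counts, as 14 of its 15516 transcripts. Tac1 is listed as 4 transcripts of one locus and Npy as 2 rows with identical values. All 14 transcripts were among the 13062 that passed the filter on low counts and were tested.

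RNA was sequenced from the hippocampi of male Sprague Dawley rat pups, 1 library per animal. On postnatal day 7 (P7) the pups received an intraperitoneal injection of saline vehicle (VEH), phenobarbital (PB, 75 mg/kg, a barbiturate that enhances GABA-A receptor currents) or levetiracetam (LEV, 200 mg/kg, an antiseizure drug that binds the synaptic vesicle protein SV2A). Tissue was collected 72 h after the injection, at P10, and 1 pup per litter entered each group. The values below rest on 13 VEH, 14 PB and 14 LEV animals. The pups carried no transgene, and a single dose and a single time were measured. One further VEH animal, marked in its label as excluded, was left out.

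A neuropeptide is made as a long precursor protein that is cut by convertases, trimmed and often amidated inside dense-core granules, and is released mainly when a neuron fires in bursts. It then acts on G protein-coupled receptors of nearby cells. In the hippocampus most of these precursors are made by GABAergic interneurons. Somatostatin and neuropeptide Y mark dendrite-targeting cells, VIP marks cells that inhibit other interneurons, and cholecystokinin marks a class of basket cells. Pdyn and Penk are also transcribed by dentate granule cells, and Cck by pyramidal cells, so a bulk level is not that of interneurons alone. In bulk tissue, fewer cells of a type and less RNA per cell cannot be told apart.

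The animals had between 9499492 and 14488134 estimated counts each. Levels are given as normalized counts, which are counts scaled to a common library size of 11405252, and they are compared between animals, not between genes, because transcript lengths were not used. The sample codes come in 2 forms, the first given to animals numbered 1 to 6 and the second to those numbered 7 to 14, and the form of the code was a term in every test. Markers of dentate granule cells and of pyramidal cells were present in every animal. The label of 1 VEH animal, animal 1, was not borne out by its counts, because it had 1 count of the Y-linked transcript Eif2s3y and the other 40 animals had 705 to 1028. On the second principal component PB animal 2 (30.8), VEH animal 9 (-24.3) and PB animal 7 (22.1) were the farthest from 0. Some fits left out VEH animal 1 and PB animal 2, or all 4 of these animals (both chosen after seeing the data). Calls of differential expression and signs that changed in these fits are given both ways.

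Somatostatin transcription is the textbook case of control by cyclic AMP, and the cyclic AMP response element (CRE) was defined in its promoter. RefSeq promoter sequences of the GRCr8 assembly, covering 250 bases before to 50 after each gene's start, were matched for Sst, Cort, Pdyn, Tac1, Vip and Npy. The 4 printed here are Sst and Pdyn, which fell after PB, Vip, which lay next to the limit, and Cort, the paralog of Sst that varied with it from animal to animal. Each runs 5′ to 3′ on the strand of its gene, from 110 bases before to 10 bases after the RefSeq start. Capitals mark the full CRE, its half-site on either strand, or the TATA box.
Sst: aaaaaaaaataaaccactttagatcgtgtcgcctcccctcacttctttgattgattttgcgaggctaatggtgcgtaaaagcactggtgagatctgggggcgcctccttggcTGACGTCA
Pdyn: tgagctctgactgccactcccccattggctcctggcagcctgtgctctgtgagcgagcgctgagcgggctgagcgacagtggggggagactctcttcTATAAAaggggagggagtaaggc
Vip: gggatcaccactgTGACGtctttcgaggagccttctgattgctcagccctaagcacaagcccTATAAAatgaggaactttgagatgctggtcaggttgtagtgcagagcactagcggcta
Cort: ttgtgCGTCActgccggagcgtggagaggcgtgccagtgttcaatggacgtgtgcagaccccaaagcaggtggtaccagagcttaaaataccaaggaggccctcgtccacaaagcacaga

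These stretches lie at chr11:90461436-90461555 (plus strand, Sst), chr3:137366494-137366613 (minus strand, Pdyn), chr1:44470370-44470489 (plus strand, Vip) and chr5:164845115-164845234 (minus strand, Cort) of GRCr8. The full CRE, TGACGTCA, was found in the promoter of Sst alone among the 6, at bases 3 to 10 counted from the RefSeq start, and 1.83% of all 33469 promoters hold it on either strand. Its half-site TGACG, which also lies inside the full CRE on both strands, was found in Sst, Vip, Tac1 and Cort, against 21.2% of all promoters. A TATAAA box was found in Vip and Pdyn (14.2% of all promoters) and the E-box CACGTG in Tac1 and Cort (6.42%). The AP-1 site TGANTCA was found in none of the 6 (7.33%). These are matches of letters in a window and not measured binding. The RefSeq start is an annotation and was not checked against a measured start of transcription, so positions counted from it can be shifted.

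Among the 14 transcripts, 3 were lower after PB than after VEH by the limits used for differential expression, an adj. p-value under 0.05 and a log2 fold change of at least 0.32 in size: Sst, Pdyn and Tac3. Of all tested transcripts, 0.605% passed these limits in either direction and 0.26% were lower. None of the 14 rose. At an unadjusted p under 0.05, 7 of the 14 were lower and 0 higher, against 10.4% of all tested transcripts lower and 20.2% past it in either direction, and the 7 include both identical rows of Npy. The median log2 fold change of the 14 was -0.20 and that of all tested transcripts 0.0046, and 12 of the 14 were below 0 (48.1% of all). When counts were summed per gene, 4 of the 10 genes passed both limits, with Vip in addition (0.674% of 12168 genes), and 6 of 10 were lower at an unadjusted p under 0.05 (10.7%). Of the 10 genes 8 were below 0, with a median log2 fold change of -0.19 (0.0061 over all genes).

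**Figure D1:**
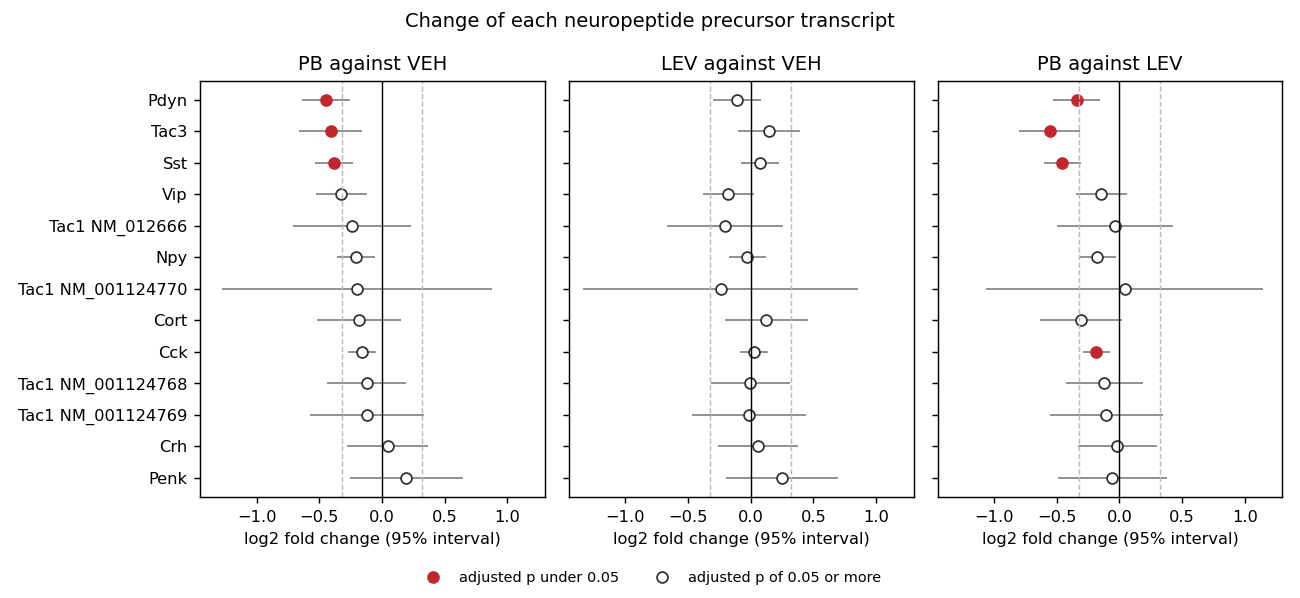
Log2 fold change of each precursor transcript (x axis, with 95% interval) in the 3 comparisons, with filled points for an adj. p-value under 0.05 in edgeR quasi-likelihood test and dashed lines at a log2 fold change of 0.32 in size. The identical Npy rows are drawn once, and Sst, Pdyn and Tac3 lie left of the dashed line with filled points in PB against VEH and in PB against LEV, while every point of LEV against VEH is open.

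Sst encodes somatostatin, the inhibitory peptide of oriens-lacunosum moleculare and hilar interneurons, and lies on chromosome 11 of rn6 (80358172 to 80359450). In animals 1 to 6 its normalized count ranged from 2236 (median 2523, highest 2652) in VEH, from 1492 (median 2009, highest 2338) in PB and from 2355 (median 2540, highest 3023) in LEV. In animals 7 to 14 it ranged from 1357 (median 1617, highest 2348) in VEH, from 916 (median 1322, highest 1513) in PB and from 1368 (median 1846, highest 2029) in LEV. The PB animals were the lower group in both sets. In animals 1 to 6 the highest PB animal (2338) was just below the lowest LEV animal (2355), and elsewhere the ranges overlapped. How many of all transcripts separate in this way was not counted. Sst fell by 23.3% after PB (log2 fold change -0.38, standard error 0.07, adj. p-value = 0.00183, edgeR quasi-likelihood test, Benjamini-Hochberg), and all of the 14 PB animals had less than the VEH mean of their code form. It ranked 43 by p among the 13062 transcripts, and it kept both limits in each of the 41 fits that left out 1 animal. It lost its call when the form of sample code was not in the model (log2 fold change -0.39, edgeR adj. p-value = 0.0831) and in animals 1 to 6 alone (-0.32, edgeR adj. p-value = 0.0869).

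**Figure D2:**
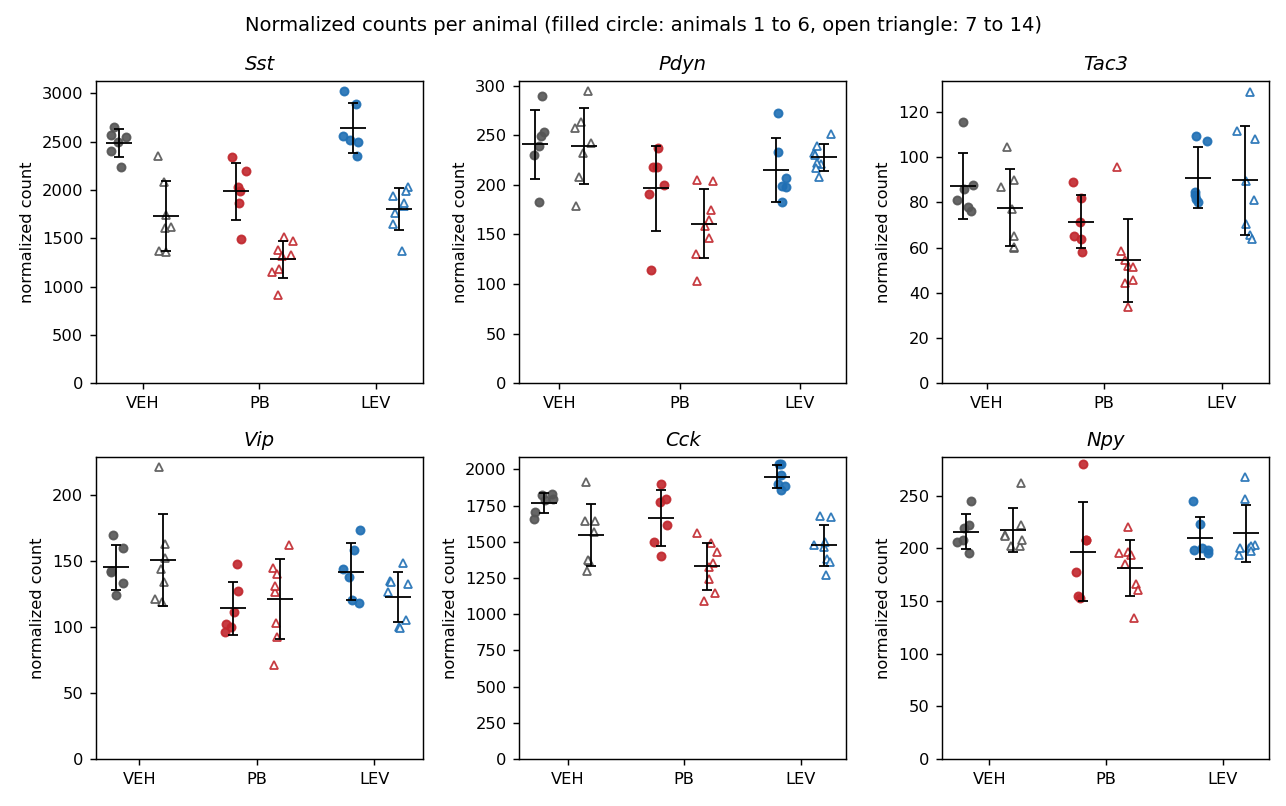
Normalized count (y axis, from 0) of 6 precursors in each animal of the 3 groups, with filled circles for animals 1 to 6, open triangles for animals 7 to 14, and bars for the mean ± SD of each set. For Sst the 6 PB animals of the first set lie between 1492 and 2338, just below the lowest LEV animal of that set at 2355. For Pdyn the 8 PB animals of the second set end at 204, just below the lowest LEV animal at 208. The share of all transcripts that separate so was not counted.

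Cort encodes cortistatin, a peptide that shares its receptor-binding core with somatostatin, and lies on chromosome 5 (165942780 to 165944222). Its normalized count ranged from 85.2 to 219 (median 174) in VEH, from 33.9 to 222 (median 149) in PB and from 108 to 257 (median 181) in LEV. The 3 ranges overlapped almost fully, and the lowest value was that of PB animal 2. The log2 fold change after PB was -0.18 (95% interval -0.52 to 0.15, adj. p-value = 0.588, edgeR quasi-likelihood test, Benjamini-Hochberg), and 8 of 14 PB animals had less than the VEH mean. The interval holds the change seen in Sst, so that an equal fall could not be told from none.

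Pdyn encodes prodynorphin, the source of the dynorphins that act on kappa opioid receptors, and lies on chromosome 3 (122194329 to 122206672). In animals 1 to 6 its normalized count ranged from 183 (median 244, highest 290) in VEH, from 114 (median 209, highest 237) in PB and from 183 (median 203, highest 272) in LEV. In animals 7 to 14 it ranged from 178 (median 242, highest 295) in VEH, from 103 (median 161, highest 204) in PB and from 208 (median 226, highest 251) in LEV. In animals 7 to 14 the highest PB animal (204) was just below the lowest LEV animal (208) and above the lowest VEH animal (178). The share of all transcripts that separate PB from LEV in this way was not counted. Pdyn fell by 26.8% after PB (log2 fold change -0.45, standard error 0.09, adj. p-value = 0.00383, edgeR quasi-likelihood test, Benjamini-Hochberg), in 14 of 14 PB animals. It passed both limits in each of the 41 fits that left out 1 animal, and it was the 1 member that passed when the form of sample code was not in the model. It lost its call in animals 1 to 6 alone (-0.30, edgeR adj. p-value = 0.405).

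Penk, on chromosome 5 (17056419 to 17061362), encodes proenkephalin, the source of the enkephalins that act on delta and mu opioid receptors. Its normalized count ranged from 46.8 to 144 (median 74.4) in VEH, from 48.0 to 249 (median 91.9) in PB and from 49.0 to 256 (median 92.8) in LEV. The groups overlapped, and 1 PB animal (animal 2, 249) and 1 LEV animal (animal 11, 256) lay far above the rest. Penk had a log2 fold change of 0.19 after PB (95% interval -0.25 to 0.64, adj. p-value = 0.680, edgeR quasi-likelihood test, Benjamini-Hochberg), and 7 of 14 PB animals had more than the VEH mean of the code form. It was 0.03 without PB animal 2, and in animals 7 to 14 alone it was -0.06.

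Tac3, on chromosome 7 (71023976 to 71030583), encodes neurokinin B, the tachykinin that prefers the NK3 receptor. In animals 1 to 6 its normalized count ranged from 76.4 (median 83.5, highest 116) in VEH, from 58.2 (median 68.2, highest 88.9) in PB and from 80.1 (median 83.9, highest 109) in LEV. In animals 7 to 14 it ranged from 59.7 (median 77.3, highest 105) in VEH, from 33.7 (median 51.8, highest 95.9) in PB and from 63.7 (median 85.2, highest 129) in LEV. Most PB animals lay low, but the groups overlapped in both sets. Tac3 fell by 24.7% after PB (log2 fold change -0.41, standard error 0.12, adj. p-value = 0.0410, edgeR quasi-likelihood test, Benjamini-Hochberg), in 12 of 14 PB animals. This call was near the limit. It was lost in 15 of the 41 fits that left out 1 animal (VEH animal 1, 3, 9, 11, 12 or 13, or PB animal 1, 2, 3, 7, 8, 9, 11, 13 or 14), with edgeR adj. p-values from 0.0142 to 0.0859 over the 41, and without VEH animal 1 and PB animal 2 the log2 fold change was -0.35 with an edgeR adj. p-value of 0.107. Without VEH animals 1 and 9 and PB animals 2 and 7 it was -0.32 (edgeR adj. p-value = 0.211). The call was lost in 8 of the 16 other settings, these fits included. The edgeR adj. p-value was 0.0638 without the code form term, 0.264 with the excluded VEH animal kept and 0.0537 with only the 2 groups fitted. It was 0.386 in animals 1 to 6 alone, 0.128 in animals 7 to 14 alone and 0.0837 with animal number as block.

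Tac1 encodes the precursor of substance P and neurokinin A, and its 4 transcripts share 1 locus on chromosome 4 (33638853 to 33646822), among which the counting algorithm divided the reads. NM_001124768 held 47.7% ± 9.19 of the Tac1 counts in the 13 VEH animals, 49.0% ± 9.19 in the 14 PB animals and 49.4% ± 12.2 in the 14 LEV animals (mean ± SD). NM_001124770 held 6.29% ± 6.87, 6.15% ± 6.83 and 5.46% ± 3.71, and it was listed at 0 in 4 VEH, 3 PB and 2 LEV animals. The shares of the 4 transcripts differed between groups by less than the spread between animals. Summed over the 4 transcripts, the normalized count ranged from 110 to 247 (median 162) in VEH, from 107 to 176 (median 155) in PB and from 96.7 to 195 (median 161) in LEV, with the groups overlapping. The log2 fold change of the sum after PB was -0.16 (95% interval -0.37 to 0.05, adj. p-value = 0.393, quasi-likelihood test of edgeR, Benjamini-Hochberg adjusted over genes), and those of the single transcripts lay between -0.24 and -0.12.

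Vip encodes vasoactive intestinal peptide, the marker of interneuron-selective cells, and lies on chromosome 1 (42169501 to 42177582). Its normalized count ranged from 119 to 222 (median 143) in VEH, from 71.0 to 162 (median 119) in PB and from 99.1 to 173 (median 133) in LEV. The ranges overlapped, and in 12 of 14 PB animals Vip was under the VEH mean of the code form. A log2 fold change of -0.32 was estimated after PB (standard error 0.10, adj. p-value = 0.0519, edgeR quasi-likelihood test, Benjamini-Hochberg), just outside the limit on the adj. p-value. It passed both limits with DESeq2 (adj. p-value = 0.0323), in the summed counts per gene (edgeR quasi-likelihood test, adj. p-value = 0.0479) and in 11 of the 41 fits that left out 1 animal (VEH animal 2, 4, 12 or 13, PB animal 6, 9, 11 or 13, or LEV animal 2, 9 or 12), with edgeR adj. p-values from 0.0267 to 0.110 over the 41. With the excluded VEH animal kept, the log2 fold change was -0.24 (edgeR, adj. p-value = 0.386), and without VEH animals 1 and 9 and PB animals 2 and 7 it was -0.20 (edgeR, adj. p-value = 0.337).

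Crh, on chromosome 2 (104459999 to 104461864), encodes corticotropin-releasing hormone, which the developing hippocampus makes in interneurons and Cajal-Retzius cells. It had the fewest counts of the 10 genes, with a normalized count from 16.1 to 39.4 (median 30.2) in VEH, from 19.5 to 45.6 (median 31.1) in PB and from 16.3 to 57.9 (median 29.5) in LEV. The 3 groups overlapped around a common median. Crh had a log2 fold change of 0.04 after PB (95% interval -0.28 to 0.36, adj. p-value = 0.909, edgeR quasi-likelihood test, Benjamini-Hochberg). This bounds a fall at less than the change estimated for Sst (-0.38) and leaves a rise past the fold limit inside the interval.

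**Figure D3:**
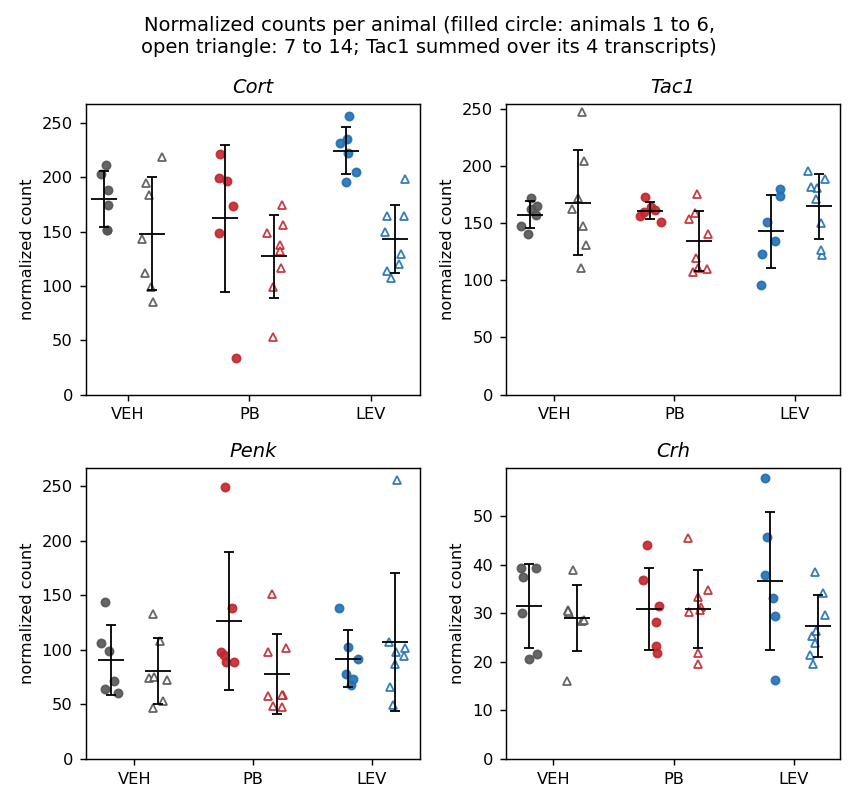
Normalized count (y axis, from 0) of Cort, Tac1 (sum of its 4 transcripts), Penk and Crh in each animal of the 3 groups, with filled circles for animals 1 to 6, open triangles for animals 7 to 14, and bars for the mean ± SD of each set. The groups overlap in every panel, and single animals stand apart for Cort (PB, 33.9) and Penk (PB, 249, and LEV, 256).

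Npy encodes neuropeptide Y, which is made by hilar and neurogliaform interneurons and damps glutamate release. It is listed at 2 places on chromosome 4 (79557856 to 79565058 and 79574010 to 79581211) with the same counts, so that the reads were shared equally between the copies. Its normalized count per copy ranged from 195 to 262 (median 212) in VEH, from 133 to 280 (median 189) in PB and from 194 to 268 (median 200) in LEV. The PB animals reached lower than any VEH or LEV animal and also held the highest value. Npy had a log2 fold change of -0.20 after PB (95% interval -0.36 to -0.05, adj. p-value = 0.0961, edgeR quasi-likelihood test, Benjamini-Hochberg), and 12 of 14 PB animals had less than the VEH mean of the code form.

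Cck, on chromosome 8 (130120525 to 130127110), encodes cholecystokinin. In animals 1 to 6 its normalized count ranged from 1654 (median 1792, highest 1830) in VEH, from 1400 (median 1696, highest 1898) in PB and from 1858 (median 1932, highest 2040) in LEV. In animals 7 to 14 it ranged from 1300 (median 1565, highest 1915) in VEH, from 1092 (median 1339, highest 1560) in PB and from 1273 (median 1470, highest 1675) in LEV. In animals 1 to 6 the lowest LEV animal (1858) was just above the highest VEH animal (1830), and the share of all transcripts that separate so was not counted. In animals 7 to 14 the LEV median was below the VEH median. The log2 fold change after PB was -0.16 against VEH (95% interval -0.27 to -0.04, adj. p-value = 0.0889, edgeR quasi-likelihood test, Benjamini-Hochberg), in 10 of 14 PB animals.

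LEV and VEH animals were compared in the same fit, and they share the VEH animals with the comparison above. None of the 14 transcripts passed both limits (edgeR, 0% of all tested transcripts), none had an adj. p-value under 0.05 (0.00766%) or an unadjusted p under 0.05 (5.84%), and none passed both limits with DESeq2. Of the 14, 8 were below 0 (49.8% of all). The log2 fold changes lay between -0.24 and 0.25 with a median of -0.008. Summed per gene, 4 of 10 were below 0 and the median was 0.046 (0.0010 over all genes). The 95% interval was -0.08 to 0.22 for Sst, -0.30 to 0.08 for Pdyn and -0.10 to 0.39 for Tac3. For Sst and Pdyn these exclude a fall as large as the one estimated after PB (-0.38 and -0.45). The interval after PB was -0.53 to -0.23 for Sst and -0.64 to -0.26 for Pdyn, and for Pdyn it overlaps that after LEV. For Tac3 the interval after LEV excludes any fall of more than 0.10 on the log2 scale. The lowest p was that of Vip (log2 fold change -0.18, 95% interval -0.38 to 0.03, unadjusted p = 0.0857, edgeR quasi-likelihood test), and 12 of 14 LEV animals had less than the VEH mean of the code form, and its interval includes the change of Vip after PB.

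The drugs were also set against each other directly. Of the 14 transcripts, 3 were lower after PB than after LEV by both limits (0.582% of all tested transcripts passed in either direction, 0.299% lower), and they were Sst, Tac3 and Pdyn. Sst was 27.1% lower (log2 fold change -0.46, standard error 0.07, adj. p-value = 0.000233, edgeR quasi-likelihood test, Benjamini-Hochberg), ranked 9 by p of all transcripts, and all of the 14 PB animals had less than the LEV mean of the code form. Tac3 was 31.9% lower (log2 fold change -0.56, standard error 0.12, adj. p-value = 0.00609, same test), in 13 of 14 PB animals, and kept both limits in each of the 41 fits that left out 1 animal. It missed them in animals 1 to 6 alone (-0.35, edgeR adj. p-value = 0.206), in animals 7 to 14 alone (-0.72, edgeR adj. p-value = 0.0541) and with the excluded VEH animal kept (edgeR adj. p-value = 0.0559). Pdyn was 21.0% lower (log2 fold change -0.34, standard error 0.09, adj. p-value = 0.0280, same test), in 11 of 14 PB animals. Its call was lost in 4 of the 41 fits (without PB animal 2, 7 or 14 or LEV animal 2) and, without VEH animal 1 and PB animal 2, at a log2 fold change of -0.30 (edgeR, adj. p-value = 0.0503), or -0.25 without VEH animal 9 and PB animal 7 as well (edgeR, adj. p-value = 0.0918). In animals 1 to 6 alone Pdyn was at -0.14 (edgeR, adj. p-value = 0.709) and in animals 7 to 14 alone at -0.50 (edgeR, adj. p-value = 0.0273). It was just under the fold limit, at -0.318, with a code form by treatment term and with code form effects subtracted, and with the excluded VEH animal kept its edgeR adj. p-value was 0.0670. Cck had an adj. p-value of 0.0438 with a change under the fold limit (log2 fold change -0.18, edgeR quasi-likelihood test, Benjamini-Hochberg), in 12 of 14 PB animals, which made 4 of 14 at an adj. p-value under 0.05, all lower (4.45% of all transcripts in either direction, 2.78% lower). At an unadjusted p under 0.05, 6 of 14 were lower (10.2% of all lower, 19.6% in either direction), and 13 of 14 were below 0 (48.7% of all). Summed per gene, 3 of 10 passed both limits (0.608% of all genes), and 10 of 10 were below 0 with a median of -0.18 (0.0035 over all genes). For Vip the difference between the drugs was -0.14 (95% interval -0.35 to 0.06), which was not past the limits.

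Every change was also computed within each form of sample code, since the labels give no other mark of a batch and animals were bought in 2 orders. The level of Sst was lower in animals 7 to 14 than in animals 1 to 6 by a log2 difference of -0.57 (adj. p-value = 1.47e-09), that of Cck by -0.31 (adj. p-value = 1.25e-06) and that of Cort by -0.43 (adj. p-value = 0.0121, edgeR quasi-likelihood test, Benjamini-Hochberg). These are 3 of 14 transcripts, against 30.2% of all tested transcripts that differed between the code forms. What differed between the 2 sets of animals beyond the code is not given in the labels.

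The change after PB was below 0 in both sets for Sst, Pdyn, Tac3, Vip, Npy, Cck and Cort. The same held for Tac1 NM_001124768 and NM_001124770. For Cort it was -0.15 (standard error 0.25) in animals 1 to 6 and -0.22 (0.23) in animals 7 to 14. The log2 fold change of Sst was -0.32 (standard error 0.11) in animals 1 to 6 and -0.43 (0.10) in animals 7 to 14. That of Pdyn was -0.30 (0.14) and -0.58 (0.12), with -0.13 (0.14) and -0.50 (0.12) against LEV, and that of Tac3 was -0.29 (0.18) and -0.51 (0.17). The change of Vip after PB was -0.35 (0.15) and -0.31 (0.14), while its change after LEV was -0.03 (0.15) and -0.30 (0.14). Penk changed by 0.47 (0.31) after PB in animals 1 to 6 and by -0.06 (0.29) in animals 7 to 14. A test of the difference between the sets passed for 0 of the 14 transcripts in each of the 3 comparisons (edgeR, lowest adj. p-value 0.337; 0.0689%, 0.842% and 0.023% of all tested transcripts passed in PB against VEH, LEV against VEH and PB against LEV), with 1, 1 and 2 of 14 at an unadjusted p under 0.05. Fitted alone, animals 1 to 6 gave 0 calls among the 14 between PB and VEH and animals 7 to 14 gave 2.

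**Figure D4:**
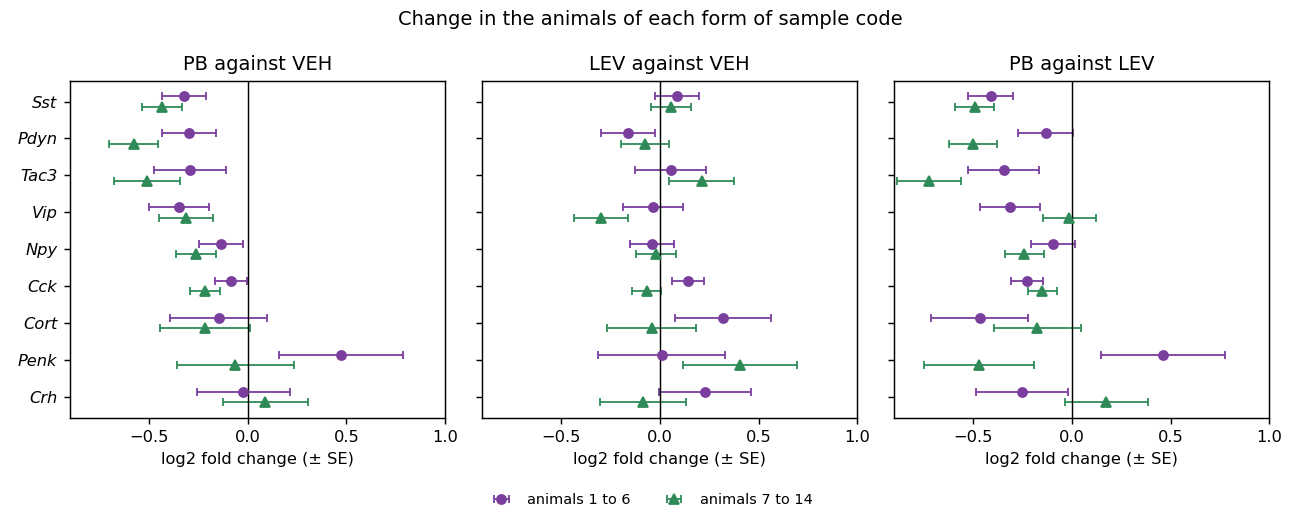
Log2 fold change (x axis) with its standard error for 9 precursors in the 3 comparisons, computed within animals 1 to 6 (circles) and within animals 7 to 14 (triangles). In PB against VEH the points of Sst, Pdyn, Tac3, Vip, Npy, Cck and Cort lie below 0 in both sets. Those of Penk and Crh fall on either side of 0.

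Genes that act with the precursors were counted from fixed lists. Of 14 transcripts for peptide processing and dense-core granules, 1 was lower after PB than after VEH at an adj. p-value under 0.05 (5.39% of all tested transcripts passed in either direction, 3.46% lower), and 7 of 14 had an unadjusted p under 0.05 (20.2% of all). Of the 14, 12 had a log2 fold change below 0 (48.1% of all), with a median of -0.10. It was Scg5, which encodes 7B2, the chaperone of the convertase PC2, with normalized counts of 1654 ± 150.0 in the 13 VEH, 1365 ± 194 in the 14 PB and 1685 ± 169 in the 14 LEV animals (mean ± SD), a log2 fold change of -0.28 and an adj. p-value of 0.00383 (edgeR quasi-likelihood test, Benjamini-Hochberg). Against LEV, Scg5 and Chgb (chromogranin B) were lower after PB. Of 22 transcripts for the receptors of the peptides and the CRH binding protein, 0 had an adj. p-value under 0.05 in any comparison (edgeR), with 2, 0 and 2 at an unadjusted p under 0.05 in PB against VEH, LEV against VEH and PB against LEV (20.2%, 5.84% and 19.6% of all tested transcripts). Their median log2 fold change after PB was 0.0007. Of 13 tested transcripts of other neuropeptide precursors, 0 passed in any comparison, with 8, 3 and 5 at an unadjusted p under 0.05 against the same shares of all, and their changes after PB ran in both directions, from -0.45 to 0.62.

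Other markers of interneurons were in part lower after PB. Of 28 transcripts, 2 passed both limits between PB and VEH, and they were Pvalb (parvalbumin, of fast-spiking basket cells) and Lamp5 (of neurogliaform cells), both lower (0.605% of all tested transcripts in either direction, 0.26% lower). At an unadjusted p under 0.05 there were 13 (20.2% of all). At an adj. p-value under 0.05 alone, 5 were lower and 1 (Calb2, calretinin) was higher, against 3.46% of all tested transcripts lower and 1.93% higher. The whole list summed to a normalized count of 22656 to 32096 (median 28950) in VEH, 25247 to 29135 (median 26482) in PB and 25362 to 30453 (median 28635) in LEV. The general GABAergic markers gave 1949 ± 195 normalized counts of Gad1 in VEH, 1745 ± 204 in PB and 1970 ± 124 in LEV. Gad2 had 807 ± 96.5, 749 ± 120 and 769 ± 87.8, and the vesicular GABA transporter Slc32a1 had 1261 ± 95.9, 1043 ± 169 and 1267 ± 68.0. Between PB and VEH the log2 fold change was -0.27 for Slc32a1 (adj. p-value = 0.00367), -0.16 for Gad1 (adj. p-value = 0.0605) and -0.11 for Gad2 (adj. p-value = 0.411, edgeR quasi-likelihood test, Benjamini-Hochberg), so that of the 3 Slc32a1 alone passed, and it did so under the fold limit. Between PB and LEV 3 of 28 were lower by both limits (0.299% of all lower), Pvalb, Lamp5 and Chrna2, and 7 were lower at an adj. p-value under 0.05 (2.78% of all lower), among them Gad1 (log2 fold change -0.18, edgeR adj. p-value = 0.0400). Chrna2, a nicotinic receptor subunit of oriens-lacunosum moleculare cells, had a log2 fold change of -0.43 between PB and LEV (adj. p-value = 0.0327, same test). LEV against VEH gave 0 of 28, with 3 at an unadjusted p under 0.05.

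Principal cell markers were also lower after PB in part. Of 8 pyramidal cell transcripts all had a log2 fold change below 0 between PB and VEH (48.1% of all tested transcripts), with a median of -0.12, and 2 had an adj. p-value under 0.05 (3.46% of all lower), both of them rows of Fibcd1 (-0.21 and -0.22, edgeR adj. p-value = 0.0285 and 0.0222). Their summed normalized count was 14666 to 16864 (median 15919) in VEH, 13950 to 15912 (median 14638) in PB and 13908 to 16445 (median 15521) in LEV. Of 5 dentate granule cell transcripts 4 were below 0 with a median of -0.10 and 0 passed (edgeR, 1 at an unadjusted p under 0.05), and they summed to 1164 to 2124 (median 1696) in VEH, 1347 to 1937 (median 1604) in PB and 1235 to 1815 (median 1635) in LEV. Cck and Pdyn are also transcribed in these cells, and the part of these cells in the values of the precursors was not tested.

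The dissected hippocampi could hold neighbouring tissue, and its markers were followed beside the precursors. Of 9 striatum transcripts, where Penk, Pdyn and Tac1 are also made, 0 passed in PB against VEH (edgeR, 1 at an unadjusted p under 0.05), and their summed normalized count was 1183 to 1607 in VEH, 1223 to 1720 in PB and 1276 to 1930 in LEV. After PB, 1 of the 9 was below 0 (48.1% of all tested transcripts), with a median log2 fold change of 0.08. Of 7 neocortex transcripts, 1 passed (Lamp5, lower), with summed counts of 1920 to 3671, 2288 to 4004 and 2301 to 3800, and of 4 habenula transcripts 0 passed, with 0 at an unadjusted p under 0.05. Of 6 thalamus transcripts 2 were higher after PB by both limits (0.345% of all tested transcripts), Tcf7l2 (log2 fold change 0.35) and Prkcd (0.35), and the summed counts were 1605 to 1964 in VEH, 1642 to 1981 in PB and 1684 to 2052 in LEV. Of the 7 hypothalamic markers 1 was tested (Hcrt). Its log2 fold change was -0.45 in PB against VEH, 0.21 in LEV against VEH and -0.66 in PB against LEV. It had no adj. p-value under 0.05 (edgeR), but an unadjusted p under 0.05 in both comparisons of PB (10.4% and 10.2% of all tested transcripts lower). Sim1, Oxt and Agrp had a median normalized count under 1 in each group. Choroid plexus markers summed to between 113 and 85572 per animal, with 0 of 10 transcripts past the limits and 0 at an unadjusted p under 0.05. Against VEH, 0 of the 10 were below 0 after PB and 0 after LEV (48.1% and 49.8% of all tested transcripts). Their median log2 fold changes were 0.62 and 0.79. The 4 tested skeletal muscle transcripts (Atp2a1, Myh4, Acta1 and Pvalb) were all lower after PB than after VEH by both limits (0.26% of all lower), with log2 fold changes from -2.46 (Atp2a1) to -0.44 (Acta1) and edgeR adj. p-values from 0.00105 to 0.0188. All 4 were also lower after PB than after LEV (0.299% of all lower), with a median of -1.42. Their list summed to 157 to 525 in VEH, 106 to 267 in PB and 156 to 675 in LEV. Pvalb is in this list and in that of interneurons. Of 5 red blood cell transcripts 0 passed, with 0 at an unadjusted p under 0.05, and of 16 immediate early transcripts 0 passed between PB and VEH (edgeR, 1 at an unadjusted p under 0.05), while Arc had a log2 fold change of -0.27 between PB and LEV (edgeR adj. p-value = 0.0485). The part of any of these tissues in the values of the precursors was not tested.

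The precursors varied together from animal to animal. With treatment and code form removed, the 45 pairs of the 10 genes had correlations from -0.31 to 0.75 over the 41 animals, with a median of 0.22, and 34 were above 0. Pearson's r and Spearman's rho both passed at an adj. p-value under 0.05 in 9 pairs, all of them positive (two-sided permutation tests, 100000 resamples, Benjamini-Hochberg adjustment over the 45 pairs). The values of a pair come from the same library and share its scaling, so a part of any correlation can come from there.

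The highest were those among Sst, Cck and Cort. Sst and Cck had r = 0.746 and rho = 0.70 (permutation p = 1e-05 for each, the smallest that the resamples can give, adjusted p = 0.00015 and 0.000225), and r was 0.679 without the 2 animals farthest from the median of Sst. Within animals 1 to 6 it was 0.705 and within animals 7 to 14 it was 0.761, and within VEH, PB and LEV it was 0.727, 0.809 and 0.652. Sst and Cort had r = 0.643 (rho = 0.606, permutation p = 1e-05 and 5e-05, adjusted p = 0.00015 and 0.000563), with 0.559 without the 2 farthest animals, and Cck and Cort had r = 0.630 (rho = 0.680, permutation p = 1e-05 for each, adjusted p = 0.00015 and 0.000225), with 0.624 without the 2 farthest. The 2 animals left out are those farthest from the median of the first gene named, so PB animal 2, the lowest for Cort, stayed in both checks with Cort. In VEH and LEV, which do not hold that animal, r was 0.493 and 0.370 for Sst with Cort. It was 0.499 and 0.651 for Cck with Cort. Sst and Cort encode the paralogous peptides of the family, and all 3 genes had also been lower in animals 7 to 14.

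Npy and Pdyn formed another pair, with r = 0.605 (rho = 0.547, permutation p = 4e-05 and 0.00041, adjusted p = 0.00045 and 0.00369) and 0.617 without the 2 farthest animals. Within VEH, PB and LEV the r of this pair was 0.558, 0.712 and 0.301. Pdyn did not follow Sst (r = 0.170, rho = 0.022, permutation p = 0.284 and 0.891, adjusted p = 0.456 and 0.940), although both fell after PB. Their r was -0.43 in VEH, 0.64 in PB and -0.22 in LEV. Sst and Tac1 passed over all animals (r = 0.531, rho = 0.412, permutation p = 0.00035 and 0.00764, adjusted p = 0.00315 and 0.0344), but r was 0.03 within animals 1 to 6 and 0.73 within animals 7 to 14. The other 4 pairs that passed were Cck with Crh, Vip with Cort, Tac3 with Npy and Vip with Cck, with r from 0.422 to 0.463. Penk and Crh passed with no gene and with Cck alone, respectively.

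**Figure D5:**
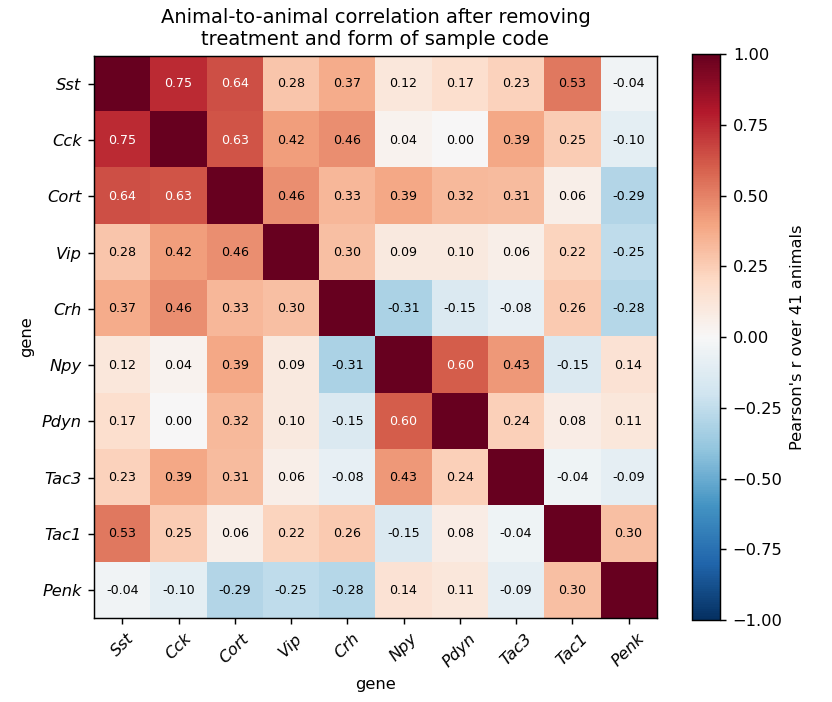
Pearson's r (colour and printed value) of each pair of the 10 precursor genes over the 41 animals, with treatment and form of sample code removed. Sst, Cck and Cort form a block of 0.63 to 0.75, Npy and Pdyn stand at 0.60, and the row of Penk holds values from -0.29 to 0.30.

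Across all tested transcripts, those most like each precursor with an adj. p-value under 0.05 in any comparison were named by Pearson's r over the 41 animals, with treatment and code form removed. For Sst they were Cck (r = 0.75), Gabarapl1 (0.75) and Bscl2 (0.74). For Tac3 they were Tmem14c (0.71), Mt3 (0.70) and Smim7 (0.68), and for Pdyn they were Kcnab2 (0.76), Rin1 (0.76) and Ptk2b (0.75). For Cck they were Basp1 (0.82), Gsk3a (0.78) and Ptms (0.78). Between 0.957% (Tac3) and 2.34% (Cck) of all tested transcripts had an r over 0.5 with these genes. Of the 11 genes other than Cck, Kcnab2, Ptk2b and Gabarapl1 were lower after PB than after VEH at an adj. p-value under 0.05 (edgeR, 3.46% of all tested transcripts lower). The 11 were picked by their correlation in these same data, so they are not separate evidence on the precursors.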

How the data were processed

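The authors trimmed reads and aligned them to rn6 with STAR 2.7.3a. The Partek E/M algorithm then assigned reads to RefSeq transcripts. The deposited estimated counts carry no normalization or batch correction, and 13.7% are not whole. A deposited table of the authors' DESeq2 comparisons (p-values, fold changes and group means) was not used. Here the counts were rounded, and R 4.3.3 and edgeR 4.0.16 were used (TMM, filterByExpr by treatment, glmQLFit and glmQLFTest). One fit of 41 animals held treatment and form of sample code, with Benjamini-Hochberg adjustment over 13062 transcripts. It was checked on simulated counts. DESeq2 1.42.0 and 15 other settings, and each animal left out in turn, were alternatives. Correlations used log2 CPM computed here (prior count 2).

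The members, lists and limits were chosen with earlier results of these data known. All members are named. List genes are named where they passed both limits (adj. p-value under 0.05 and a log2 fold change of at least 0.32 in size) in any comparison. Gad1, Gad2 and Slc32a1 are reference genes. Scg5, Chgb, Calb2, Arc, Fibcd1, Eif2s3y, the genes other than Cck that passed the adjusted p limit among those with high correlations, and single animals were named after their values were seen. Nothing in the labels ties animals to litters or the code to an order, and p-values measure the spread between animals.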

Additional observations from a re-analysis of the deposited data

How the results depend on the processing

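The limits are those of depth and design. Crh and single Tac1 transcripts had few counts, with wide intervals, and Tac1 and Npy reads were divided by an algorithm. Of 2190 log2 fold changes over 16 other settings and 41 fits that each left out 1 animal, 2048 kept direction and side of the limits, 39 lost and 16 gained a call, and 87 changed sign. The count between PB and VEH, 3, was 1 without the code form term and 0 in the first code form alone. That between PB and LEV, 3, was 1 in the first code form alone and 1 with all 14 VEH animals. With 1 animal left out these counts were 2 to 4 and 2 to 3, and for LEV 0 in each. The cause was not tested, and a code form alone also holds fewer animals. In the first code form alone the changes of Pdyn (-0.30) and Tac3 (-0.29) between PB and VEH were under the fold limit. Without VEH animal 1 and PB animal 2, and without VEH animals 1 and 9 and PB animals 2 and 7 (both chosen after seeing the data), they were 2, 0 and 2.

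Whether the animal number pairs the animals could not be decided, because the values expected without pairing were not computed. In 11 of 40 pairs that share a number the deviations correlated above 0.1 (range -0.351 to 0.282, median -0.039). Of 41 animals, 10 correlated best with their own number. After blocking on this number, the counts were 2, 0 and 3 and Tac3 lost its call between PB and VEH (log2 fold change -0.43). Under the block the sign of PB against LEV changed for Tac1 NM_001124770 (-0.043) and Crh (0.0033).

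Sign changes were of small or imprecise values. In the first code form alone, PB against VEH was 0.051 (Tac1 NM_001124769), 0.28 (Tac1 NM_012666) and -0.022 (Crh), LEV against VEH was 0.13 (Tac1 NM_001124768), and PB against LEV was 0.62 (NM_001124769), 0.37 (NM_012666) and 0.46 (Penk). In the second alone, PB against VEH was -0.061 (Penk), LEV against VEH was 0.35 (NM_001124769), 0.34 (NM_001124770), -0.068 (Cck), -0.044 (Cort) and -0.087 (Crh), and PB against LEV was -0.61 (NM_001124770) and 0.18 (Crh). With all 14 VEH animals, LEV against VEH was 0.065 (NM_001124768), 0.10 (NM_001124769) and 0.021 (Npy). With a code form by treatment term, LEV against VEH was 0.0088 (NM_001124768) and PB against LEV 0.0045 (NM_001124769). With code form effects subtracted, then DESeq2, LEV against VEH was 0.011 (NM_001124768) and PB against LEV was 0.000718 (NM_001124769) and 0.0023 (NM_012666). DESeq2 gave -0.0074 for PB against LEV (NM_001124770), and without VEH animal 1 and PB animal 2 it was -0.33 (NM_001124770) and 0.02 (Crh), or -0.21 and 0.015 without VEH animal 9 and PB animal 7 as well. Leaving out 1 animal at a time, LEV against VEH ran from -0.030 to 0.12 (Crh), -0.058 to 8.9e-05 (Npy), -0.055 to 0.06 (NM_001124768), -0.10 to 0.062 (NM_001124769) and -0.39 to 0.055 (NM_001124770), PB against LEV from -0.076 to 0.072 (Crh), -0.21 to 0.14 (Penk), -0.33 to 0.20 (NM_001124770) and -0.10 to 0.068 (NM_012666), and PB against VEH from -0.015 to 0.090 (Crh) and -0.60 to 0.12 (NM_001124770).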

Other observations

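PB animal 2 stood apart for several precursors at once. Of the 6 PB animals with the first form of code, it was the lowest for Sst (1492), Vip (96.0), Tac3 (58.2), Npy (153), Cck (1400), Pdyn (114) and Cort (33.9) and the highest for Penk (249). Its normalized count of Pvalb was 9.70, the lowest of all 41 animals, with 20.3 to 147 in the other PB animals, and its immediate early genes summed to 1960, also the lowest of the 41. Its striatum markers summed to 1601, within the 1223 to 1720 of the other PB animals, while those of LEV animal 11, which had the highest Penk (256), summed to 1585, within 1276 to 1930. PB animal 7 was the lowest of the 8 PB animals with the second form of code for Sst (916), Npy (133), Pdyn (103), Cort (52.9) and Penk (48.0).

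The VEH animal that its label marks as excluded lay below all of the other 13 VEH animals for Sst (833 against 1355 to 2650 on the scale of all 42 animals), Vip (29.3 against 119 to 221), Tac3 (14.6 against 59.7 to 116), Npy (115 against 195 to 261), Cck (1206 against 1299 to 1913), Pdyn (150 against 178 to 295) and Crh (11.5 against 16.1 to 39.3). Its Penk (137) was above 12 of the 13.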
